A study of Homo sapiens with 4 samples.

Results

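The genes described here are 10 that antigen-presenting cells use to give T cells a second signal or that mark mature dendritic cells: CD80, CD86, ICOSLG, CD274, PDCD1LG2, CD40, SLAMF7, CCR7, CD83 and LAMP3. They were chosen by name, but with earlier results of these data known. Each of the genes had at least 1 probe set, a group of short probes that reads part of a transcript. Together they held 25 of the 54675 probe sets on the array and were 10 of the 19775 genes with a probe set of their own. Expression was measured in THP-1 cells, an established human line from an acute monocytic leukaemia, on 4 Affymetrix arrays with 1 array per group. The groups were cells given Pam3CSK4 and kept with platelet-like particles for 24 h, cells given Pam3CSK4 and kept with the particles for 12 h, cells given Pam3CSK4 alone, and resting cells. Pam3CSK4 is a synthetic lipopeptide that engages the receptor pair of TLR1 and TLR2. All groups are the same cell line. The cells that shed the particles and the duration of the Pam3CSK4 treatment are not given in the sources used here, and 12 and 24 h were taken from the descriptions, since the titles of those 2 arrays end in 13 and 25 instead. With 1 array a group there was no spread between cultures, so no p-value or standard error could be had, and a difference below is 1 array minus another.

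A T cell that meets its antigen responds fully only when the presenting cell also engages its co-receptors. CD80 and CD86 bind CD28, which activates, and CTLA4, which restrains, while ICOSLG binds ICOS and the PD-1 ligands CD274 and PDCD1LG2 restrain the T cell. CD40 receives the return signal from CD40 ligand of activated T cells, and activated platelets also carry that ligand. Monocytes and dendritic cells that sense microbial lipopeptides through Toll-like receptors raise many of these genes through NF-kB, and interferon raises others.

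Values are RMA values on the log2 scale, on which a difference of 1 is 2-fold. They are relative within an array set and have no detection call, so a gene was said to reach the filter level where its value was at or above 6.19, the median of all values. Of the 10 genes 9 reached it on at least 1 array, PDCD1LG2 did not, and 4 reached it on all 4 arrays. That level does not by itself show a transcript: probe sets of 9 T cell and NK cell marker genes, which a monocytic line is not known for, lay between 4.09 and 6.82 over the 4 arrays. Other such lists reached higher: in resting cells the B cell marker PAX5 had 7.96 and the platelet marker GP9 had 7.58. A value up to there is thus not by itself evidence of a transcript either. The median of an array was 6.17 at 24 h, 6.22 at 12 h, 6.18 with Pam3CSK4 and 6.19 in resting cells. For GAPDH, control probes at the 3' end of the transcript read higher than those at the 5' end, a gap that widens as RNA degrades, by 0.70 log2 at 24 h, 0.92 at 12 h, 0.59 with Pam3CSK4 and 2.16 in resting cells. The like gap for ACTB was wide on every array: 2.90 log2 at 24 h, 3.17 at 12 h, 2.91 with Pam3CSK4 and 3.41 in resting cells. Of 8 monocyte markers 6 reached the filter level on every array. Among them LYZ, lysozyme, had 13.81 at 24 h, 13.29 at 12 h, 13.70 with Pam3CSK4 and 12.98 in resting cells. FCN1 and FCGR1A, the other 2, stayed under the filter level on all 4 arrays.

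Each gene was followed through its probe set of highest mean. On that probe set all 10 genes had their highest value at 12 h with particles and their lowest value in resting cells. Of all 19775 genes, 29.8% were highest on the 12 h array and 25.0% were lowest on the resting array. With Pam3CSK4, 7 of the 10 genes had values at least 2-fold higher than in resting cells, against 2.86% of all genes and 4.14% of the 13410 genes that reached the filter level. After 12 h with particles 3 genes, LAMP3, SLAMF7 and CD80, stood at least 2-fold above Pam3CSK4 alone, against 0.308% of all genes. After 24 h with particles 0 of the 10 stood at least 2-fold above or below Pam3CSK4 alone, against 0.0303% of all genes above and 0.0% below. Since the genes were chosen with earlier results of these data known, these counts and shares are a description and not a test.

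**Figure D1:**
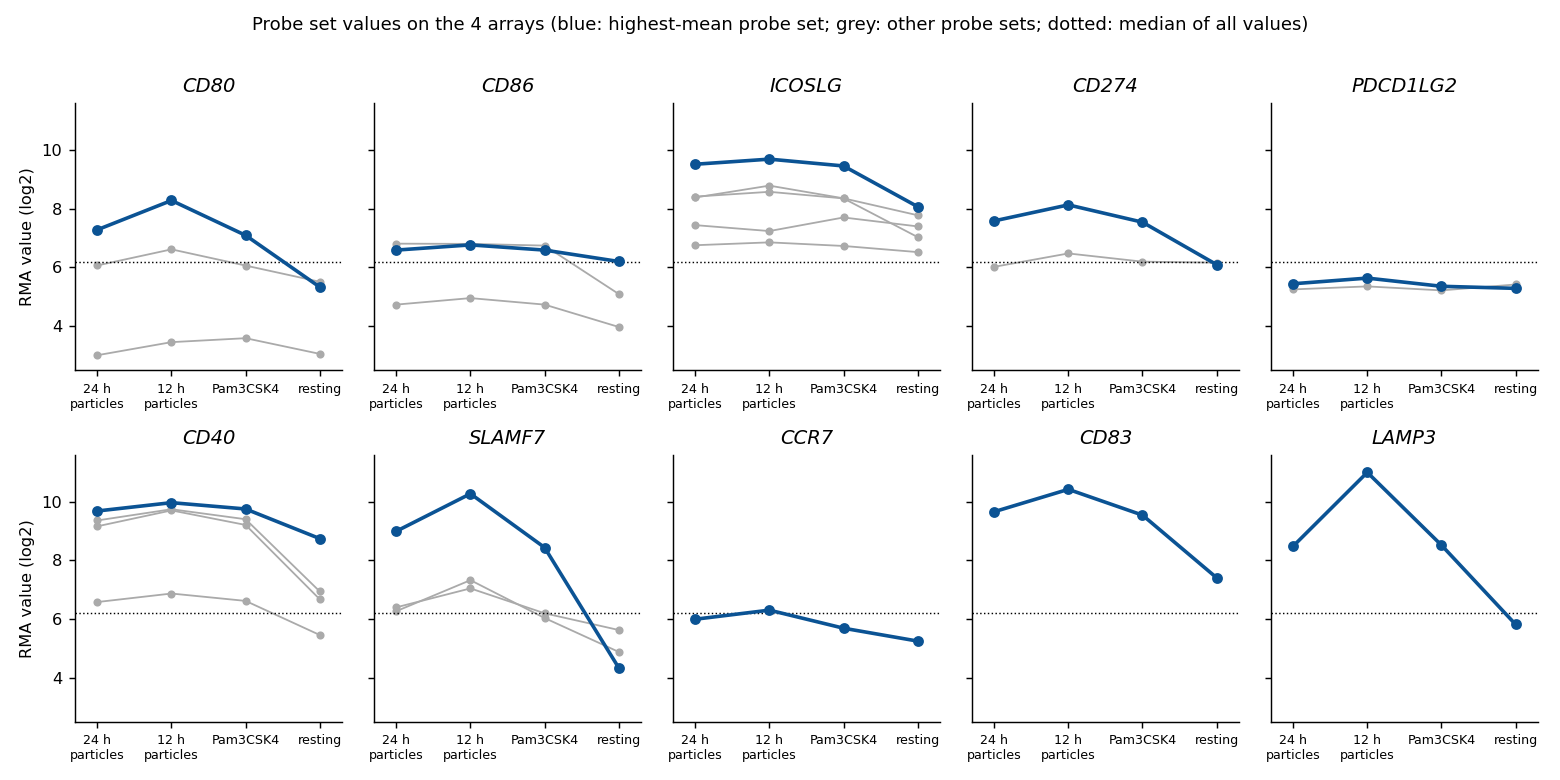
RMA values (log2, y axis) of every probe set of the 10 genes on the 4 arrays (x axis; both particle groups also received Pam3CSK4), with the probe set of highest mean in blue, the others in grey and the filter level of 6.19 dotted. Each blue line is highest at 12 h and lowest in resting cells, and LAMP3 and SLAMF7 cover the widest ranges, 5.18 and 5.93 log2.

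Promoter windows of 300 bases, from 250 before to 50 after a gene's start, were matched to 5 of the 10 genes in RefSeq (GRCh38.p14), in 7 windows. They were searched on both strands for the kB consensus of Rel proteins, for the interferon-stimulated response element GAAANNGAAA and for the STAT element TTCNNNGAA. Overlapping matches are joined. Shown are the windows of CD80 and CD274 and those of the second starts of CD83 and CD86, which hold the matches of these last 2 genes. CD80, CD83 and CD274 were among the 7 genes that differed at least 2-fold with Pam3CSK4, and so was ICOSLG, whose window is not shown. CD86, on its probe set of highest mean, was not among them. Capitals mark matches. CD80 is read from chr3:119559565-119559864 on the minus strand, CD83 from chr6:14117522-14117821, CD274 from chr9:5450292-5450591 and CD86 from chr3:122077534-122077833, the last 3 on the plus strand.
CD80: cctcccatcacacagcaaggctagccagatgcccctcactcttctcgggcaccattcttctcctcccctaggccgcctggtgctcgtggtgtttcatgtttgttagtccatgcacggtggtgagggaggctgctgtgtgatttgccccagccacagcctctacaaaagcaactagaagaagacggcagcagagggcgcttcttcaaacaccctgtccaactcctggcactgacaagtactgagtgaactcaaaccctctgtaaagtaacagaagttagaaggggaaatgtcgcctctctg
CD83: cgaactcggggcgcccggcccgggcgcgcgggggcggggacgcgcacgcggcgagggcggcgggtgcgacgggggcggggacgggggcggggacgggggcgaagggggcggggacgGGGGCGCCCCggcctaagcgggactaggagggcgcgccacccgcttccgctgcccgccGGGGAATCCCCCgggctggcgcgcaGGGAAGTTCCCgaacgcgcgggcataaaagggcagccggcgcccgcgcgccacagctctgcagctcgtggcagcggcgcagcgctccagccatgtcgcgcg
CD274: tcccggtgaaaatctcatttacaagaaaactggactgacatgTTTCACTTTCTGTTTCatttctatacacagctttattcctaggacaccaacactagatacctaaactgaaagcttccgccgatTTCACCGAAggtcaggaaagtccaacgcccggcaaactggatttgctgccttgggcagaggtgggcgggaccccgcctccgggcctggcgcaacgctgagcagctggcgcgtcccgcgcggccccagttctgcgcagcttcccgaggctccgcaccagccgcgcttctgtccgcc
CD86: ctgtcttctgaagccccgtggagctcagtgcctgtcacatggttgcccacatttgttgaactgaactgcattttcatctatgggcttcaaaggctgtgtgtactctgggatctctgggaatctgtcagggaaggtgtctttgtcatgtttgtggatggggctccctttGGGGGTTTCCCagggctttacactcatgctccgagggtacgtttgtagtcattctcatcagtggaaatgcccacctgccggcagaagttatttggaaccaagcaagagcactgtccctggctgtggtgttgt
The window of the second CD83 start held the kB consensus in 3 stretches, beginning 134, 76 and 51 bases before that start. The window of the second CD86 start held it in 1 stretch of 11 bases, beginning 82 bases before that start. In the CD274 window the response element GAAANNGAAA matched at 2 neighbouring places on the opposite strand, which join into TTTCACTTTCTGTTTC, and TTCNNNGAA matched once, as TTCACCGAA. The CD80 window held none of the 3 motifs, nor did the windows of ICOSLG, of the first CD86 start and of the first CD83 start. Of 35116 promoter windows of the same length in the table, 11.3% held the kB consensus, 3.57% held GAAANNGAAA and 7.66% held TTCNNNGAA. A match describes letters in these windows and not binding.

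Of the ligands of CD28 and its relatives, CD80 had 7.28 log2 at 24 h, 8.28 at 12 h, 7.09 with Pam3CSK4 and 5.33 in resting cells on its probe set of highest mean. The 12 h array was the highest, the 24 h and Pam3CSK4 arrays lay close together, and the resting value was under the filter level. CD80 was thus 1.76 log2 higher with Pam3CSK4 than at rest, a further 1.19 higher at 12 h, or 2.28-fold, and 0.19 higher at 24 h than with Pam3CSK4 alone. Its 24 h value was 0.998 log2 below that of 12 h, just short of 2-fold. The other 2 CD80 probe sets were smaller in difference: with Pam3CSK4 they were higher by 0.53 and 0.55, and at 12 h they stood at -0.13 and 0.55. The first of these, at 3.01 to 3.59 on the 4 arrays, never reached the filter level. Averaged over its 3 probe sets, CD80 differed by 0.95 with Pam3CSK4 and by 0.54 at 12 h, both under 2-fold.

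CD86, the other CD28 ligand, moved less on the probe set of highest mean. It had 6.59 log2 at 24 h, 6.77 at 12 h, 6.59 with Pam3CSK4 and 6.20 in resting cells, which all fall inside the range of the T cell and NK cell marker probe sets. The difference with Pam3CSK4 was 0.39, but another CD86 probe set had 6.81 at 24 h, 6.80 at 12 h, 6.74 with Pam3CSK4 and 5.09 at rest, a difference of 1.65 with Pam3CSK4. The 3 probe sets of CD86 therefore disagreed on size, from 0.39 to 1.65, and shared the direction, with an average of 0.93. At 12 h all 3 stood 0.06 to 0.22 above Pam3CSK4 alone, and at 24 h they stood between 0.00 and 0.07.

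ICOSLG, the ligand of ICOS, had 9.52 log2 at 24 h, 9.69 at 12 h, 9.46 with Pam3CSK4 and 8.07 in resting cells. The resting array was the low one and the other 3 lay within 0.23 of each other. With Pam3CSK4 its 5 probe sets were higher than at rest by 0.21 to 1.39, and 2 of the 5 differed at least 2-fold, with an average of 0.76. At 12 h against Pam3CSK4 they ranged from -0.46 to 0.43, so the direction of the small 12 h difference depended on the probe set.

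The PD-1 ligands separated from each other. CD274, which encodes PD-L1, had 7.59 log2 at 24 h, 8.13 at 12 h, 7.54 with Pam3CSK4 and 6.10 in resting cells, the last under the filter level. It was 1.45 log2 higher with Pam3CSK4 than at rest, a further 0.59 higher at 12 h and 0.04 higher at 24 h. The second CD274 probe set stayed near the filter level, with 6.02 at 24 h, 6.48 at 12 h, 6.20 with Pam3CSK4 and 6.16 at rest, and gave 0.03 for Pam3CSK4 and 0.28 for 12 h. Averaged over both, the Pam3CSK4 difference was 0.74, under 2-fold. PDCD1LG2, which encodes PD-L2, had 5.44 at 24 h, 5.64 at 12 h, 5.36 with Pam3CSK4 and 5.29 in resting cells. Its 2 probe sets did not reach the filter level on any array, and its differences, from -0.20 to 0.28 over those probe sets and the 3 comparisons with Pam3CSK4, are not evidence of a transcript.

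**Figure D2:**
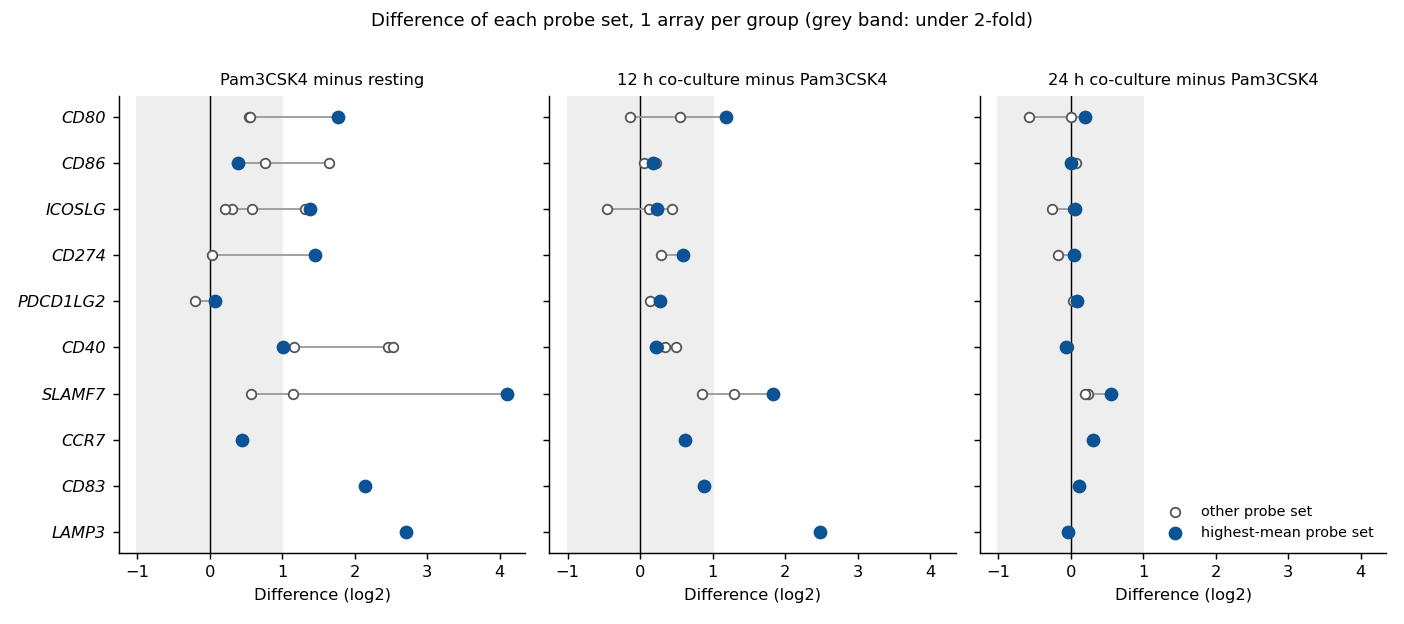
Difference (log2, x axis) of every probe set of the 10 genes (y axis) for Pam3CSK4 minus resting, 12 h co-culture minus Pam3CSK4 and 24 h co-culture minus Pam3CSK4, with the probe set of highest mean filled and lines joining the probe sets of a gene. SLAMF7 spreads from 0.57 to 4.10 in the first panel, all 3 of its probe sets are at 0.85 or more in the second, and no probe set leaves the 2-fold band in the third.

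Among the receptors, CD40 was above the filter level throughout on its probe set of highest mean. It had 9.68 log2 at 24 h, 9.97 at 12 h, 9.75 with Pam3CSK4 and 8.74 in resting cells. The resting array was lowest by 0.94 or more. All 4 CD40 probe sets were at least 2-fold higher with Pam3CSK4, by 1.01 to 2.53, so the probe set of highest mean gave the smallest size, and their average was 1.79. At 12 h they stood 0.22 to 0.50 above Pam3CSK4 alone and at 24 h between -0.07 and -0.04.

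SLAMF7, a receptor of the SLAM family that binds copies of itself on neighbouring cells, covered the widest range. It had 8.99 log2 at 24 h, 10.27 at 12 h, 8.44 with Pam3CSK4 and 4.34 in resting cells. The 4 values were spread out, with the resting array far under the filter level, so the size of the first step, 4.10 log2, depends on background. Relative to Pam3CSK4 alone SLAMF7 was 1.83 log2 higher at 12 h, or 3.56-fold, which ranked 7 from the top of 13410 genes, and 0.56 higher at 24 h, which ranked 26. At 24 h minus 12 h its 3 probe sets stood at -1.28, -1.06 and -0.65, the first 2 past 2-fold. The other 2 probe sets gave 0.57 and 1.16 for Pam3CSK4, 0.85 and 1.29 for 12 h, and 0.20 and 0.23 for 24 h. Averaged over the 3, SLAMF7 differed by 1.94 with Pam3CSK4, by 1.32 at 12 h and by -0.99 for 24 h minus 12 h, the last just under 2-fold.

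CCR7, the chemokine receptor that leads mature dendritic cells to lymph nodes, had 5.99 log2 at 24 h, 6.30 at 12 h, 5.69 with Pam3CSK4 and 5.25 in resting cells on its 1 probe set. The filter level was reached on the 12 h array alone, and the 4 values lie in the range of the T cell and NK cell marker probe sets. It stood 0.44 higher with Pam3CSK4 than at rest, 0.62 higher at 12 h and 0.31 higher at 24 h than with Pam3CSK4 alone, all under 2-fold.

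The maturation markers CD83 and LAMP3 have 1 probe set each, so nothing on the array checks their size. CD83, a surface protein of mature dendritic cells that steadies MHC class II and CD86 on the membrane, had 9.66 log2 at 24 h, 10.42 at 12 h, 9.54 with Pam3CSK4 and 7.41 in resting cells. It was 2.14 log2 higher with Pam3CSK4 than at rest, or 4.39-fold. At 12 h it was a further 0.88 higher, under 2-fold but ranked 85 of 13410 genes, and at 24 h 0.12 higher than with Pam3CSK4 alone.

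LAMP3, a lysosomal membrane protein that appears as dendritic cells mature and that interferon also raises, had 8.48 log2 at 24 h, 11.00 at 12 h, 8.52 with Pam3CSK4 and 5.82 in resting cells. The 12 h array stood well above the rest, the 24 h and Pam3CSK4 arrays were within 0.04 of each other, and the resting value was under the filter level. Pam3CSK4 gave 2.70 log2 over rest, ranked 104, and 12 h with particles gave 2.48 log2 more, which ranked 3 of 13410 genes. At 24 h minus 12 h LAMP3 stood at -2.52 log2, or 5.72-fold lower, the second lowest of the 13410 differences.

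Over the 10 genes, the median difference was 1.42 log2 for Pam3CSK4 against rest, beside -0.04 for all genes, and 0 genes were at least 2-fold lower, against 1.22% of all genes. For 12 h against Pam3CSK4 the median was 0.60 beside -0.01, and again 0 were at least 2-fold lower, against 0.243% of all genes. For 24 h against Pam3CSK4 the median was 0.07 beside -0.01. For 24 h against 12 h it was -0.43 beside 0.00, with 2 genes, LAMP3 and SLAMF7, at least 2-fold lower, against 0.162% of all genes, and 0 higher, against 0.243%. These comparisons share arrays: the Pam3CSK4 array enters 3 of them and the 12 h array 2, so a high value on the 12 h array raises one difference and lowers the other. Counted by probe set, 23 of the 25 were higher at 12 h than with Pam3CSK4 alone, against 50.0% of all probe sets naming 1 gene, and 21 of the 25 had their highest value at 12 h, against 30.6% of those probe sets. The probe sets of a gene share their transcript and are not separate measurements of the condition.

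**Figure D3:**
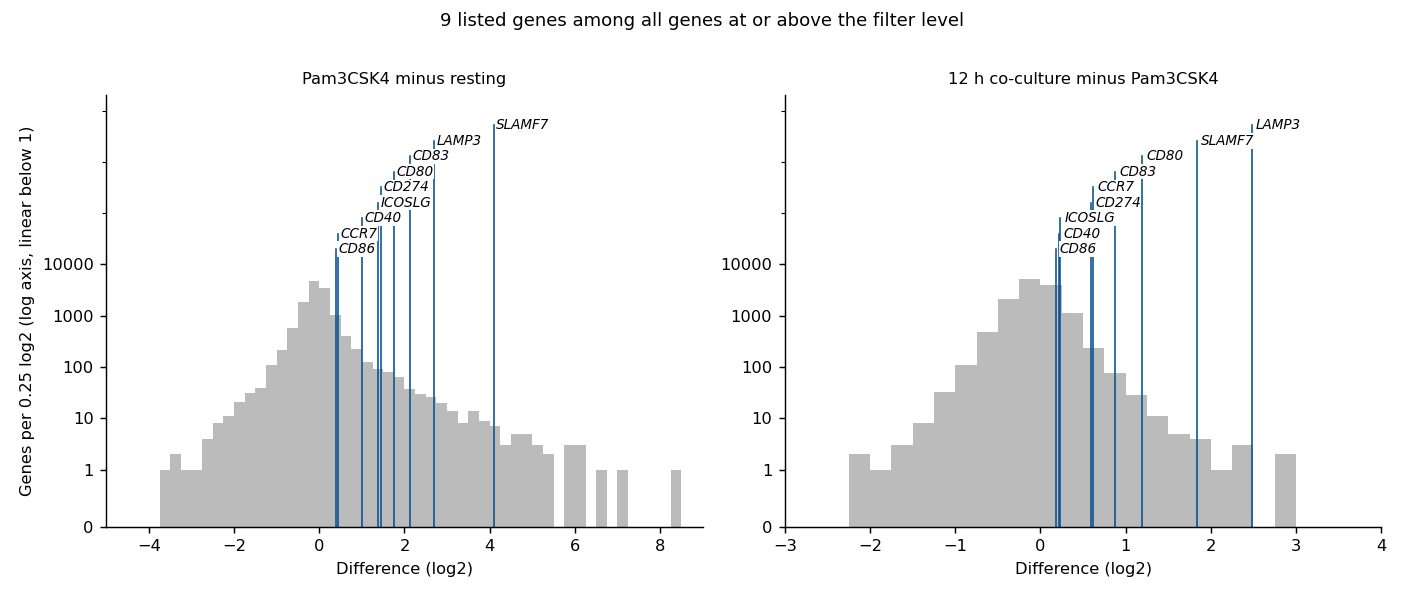
Number of genes (y axis, log scale that is linear below 1) in bins of 0.25 log2 of the difference (x axis) for Pam3CSK4 minus resting and for 12 h co-culture minus Pam3CSK4, over the 13410 genes at the filter level, with blue lines at the 9 listed genes among them (line heights separate the names and carry no value). In the second panel LAMP3 at 2.48 and SLAMF7 at 1.83 lie in the far right tail, and CD86 at 0.18 lies inside the bulk.

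The GAPDH gap and some cell markers also differed between the arrays compared. The GAPDH gap was 0.59 log2 with Pam3CSK4 against 2.16 in resting cells, and 0.92 at 12 h against 0.59 with Pam3CSK4. The ACTB gap was 2.91 with Pam3CSK4 against 3.41 in resting cells, and 3.17 at 12 h. The part of either gap in the differences was not tested. Of 8 monocyte markers 5 were lower at 12 h than with Pam3CSK4 and 3, CSF1R, FCN1 and CD36, were higher, by 0.16 to 0.33. CD14, the lipopolysaccharide co-receptor, had 9.13 log2 at 24 h, 7.74 at 12 h and 8.93 with Pam3CSK4, and MNDA, a nuclear protein of myeloid cells, had 10.04 at 24 h, 8.92 at 12 h and 10.08 with Pam3CSK4. CD14 and MNDA were the 2 that stood at least 2-fold lower, against 0.243% of all genes, and 0 stood 2-fold higher, against 0.308%. The summed linear level of the 8 was 14190.8 at 12 h and 18420.8 with Pam3CSK4. LYZ, the highest of the 8, weighs most in that sum, with 13.29 log2 at 12 h and 13.70 with Pam3CSK4. Whether the shift in these markers has a part in the higher LAMP3, SLAMF7 and CD80 values was not tested. Fewer cells of a type and less RNA per cell cannot be told apart in these bulk samples. With Pam3CSK4 against rest, 7 of the 10 genes were at least 2-fold higher. So were 3 of the 8 monocyte markers, against 2.86% of all genes: CD36 by 2.56 log2, CD14 by 2.40 and the integrin ITGAM by 2.20. At least 2-fold lower was 1, MNDA at -1.14, against 1.22% of all genes. The summed level of the 8 was 18420.8 with Pam3CSK4 and 11471.1 at rest. Of 13 markers of conventional dendritic cells 2 were at least 2-fold higher with Pam3CSK4, CADM1 by 1.63 and CD1C by 1.21, against 2.86% of all genes. At least 2-fold lower were 0 of the 13, against 1.22% of all genes. By sign alone 6 of the 13 stood above rest and 7 below. Their summed level was 6500.5 with Pam3CSK4 and 8282.3 at rest. IRF8, the highest of the 13, weighs most in that sum, with 11.95 log2 with Pam3CSK4 and 12.55 at rest. Other probe sets of ITGAM and CADM1 stood as low as -0.19 and -0.02, and the part of these markers in the differences was not tested. At 12 h against Pam3CSK4, 0 of the 13 markers of conventional dendritic cells differed by 2-fold. Of all genes, 0.308% were higher and 0.243% lower there. The 0 of 13, and the counts of 0 in the marker lists that follow, are thus near the share of all genes. The summed level of the 13 was 6294.0 at 12 h and 6500.5 with Pam3CSK4. IRF8, a transcription factor that monocytes also use, had 11.75 at 12 h and 11.95 with Pam3CSK4, while FCER1A and XCR1 stayed under the filter level on all 4 arrays. Megakaryocyte and platelet markers summed to 814.3 at 12 h and 644.2 with Pam3CSK4, with 0 of 9 at least 2-fold different. The same sum was 782.8 in resting cells, near the 12 h value, and 697.7 at 24 h, below the resting value. Whether RNA of the particles has a part in these sums was not tested. B cell markers summed to 603.3 at 12 h and 592.2 with Pam3CSK4, with 0 of 7 at least 2-fold different. T cell and NK cell markers summed to 564.8 at 12 h and 548.2 with Pam3CSK4, with 0 of 9 at least 2-fold different, and of the T cell partners of these ligands, CD28, CTLA4 and ICOS differed by 0.19 log2 at most.

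Other genes of co-stimulation and T cell restraint were read from a list of 31, all found on the array. With Pam3CSK4 6 were at least 2-fold higher than at rest, against 2.86% of all genes. At least 2-fold lower were 0, against 1.22% of all genes, and the median was 0.06. ICAM1, the adhesion ligand of LFA-1 on T cells, had 10.22 log2 with Pam3CSK4 and 6.52 at rest. TNFRSF9, the receptor known as 4-1BB, had 8.70 and 5.41, the resting value being under the filter level. CD48, which binds CD244, had 9.27 and 6.41, and CD58, which binds CD2 of T cells, had 11.65 and 10.19. CD244 was higher by 1.07 and CD70, the ligand of CD27, by 1.04. These sizes also varied with the probe set: ICAM1 ranged from 0.83 to 5.16, TNFRSF9 from 0.87 to 3.29 and CD48 from 0.49 to 2.85. CD58 ranged from 0.79 to 1.78 and CD244 from 0.10 to 1.07. At 12 h against Pam3CSK4, 0 of the 31 differed at least 2-fold in either direction on the probe set of highest mean, and the median was 0.07. Of all genes, 0.308% were higher and 0.243% lower there, so 0 of 31 is near the share of all genes. At 24 h again 0 of 31 differed, against 0.0303% of all genes higher and 0.0% lower, with a median of -0.03. Another probe set of HAVCR2, which encodes the checkpoint receptor TIM-3, went beyond 2-fold: it had 6.08 log2 at 24 h, 7.26 at 12 h, 5.99 with Pam3CSK4 and 5.28 at rest. It stood 1.27 higher at 12 h than with Pam3CSK4, and at -1.18 for 24 h minus 12 h, where the probe set of highest mean gave 0.00 and -0.04.

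A second list held other genes of dendritic cell maturation, of which 27 of 28 were found. With Pam3CSK4 7 were at least 2-fold higher than at rest, against 2.86% of all genes, and 1 was lower, against 1.22%. The median was 0.41. EBI3, a subunit of heterodimeric cytokines, had 11.84 log2 with Pam3CSK4 and 5.67 at rest. CCL19, a ligand of CCR7, had 9.25 and 6.33, and RELB, the NF-kB subunit needed for dendritic cell development, had 9.03 and 6.40. IL7R was higher by 1.66, the caspase-8 regulator CFLAR by 1.61 and FSCN1, the actin bundler of dendrites, by 1.58. Over their probe sets IL7R ranged from 1.05 to 1.66, CFLAR from 0.10 to 1.68 and FSCN1 from 0.83 to 1.58. NFKB2 was higher by 0.88 on its probe set of highest mean, while another stood 2.41 higher. SOCS2, a suppressor of cytokine signalling, had 5.23 with Pam3CSK4 and 6.72 at rest, the lower value being under the filter level, and its 3 probe sets ranged from -1.49 to 0.12. At 12 h 3 of the 27 were at least 2-fold higher than with Pam3CSK4, against 0.308% of all genes, and 0 were lower, against 0.243%. The median was 0.29. CCL22, a chemokine of mature dendritic cells that draws regulatory T cells, had 7.40 log2 at 24 h, 8.73 at 12 h, 7.42 with Pam3CSK4 and 7.79 at rest, so it differed by 2-fold or more at 12 h alone. SOCS2 was 1.13 higher at 12 h and 1.004 higher at 24 h, with 6.35 and 6.23 log2, both below its resting value of 6.72. Its lowest probe set differences were -0.02 at 12 h and -0.18 at 24 h. The third, IL12B, the p40 chain of interleukin-12, had 4.20 at 24 h, 6.11 at 12 h, 4.17 with Pam3CSK4 and 3.61 at rest, under the filter level on all 4 arrays, and is named after its values were seen.

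**Figure D4:**
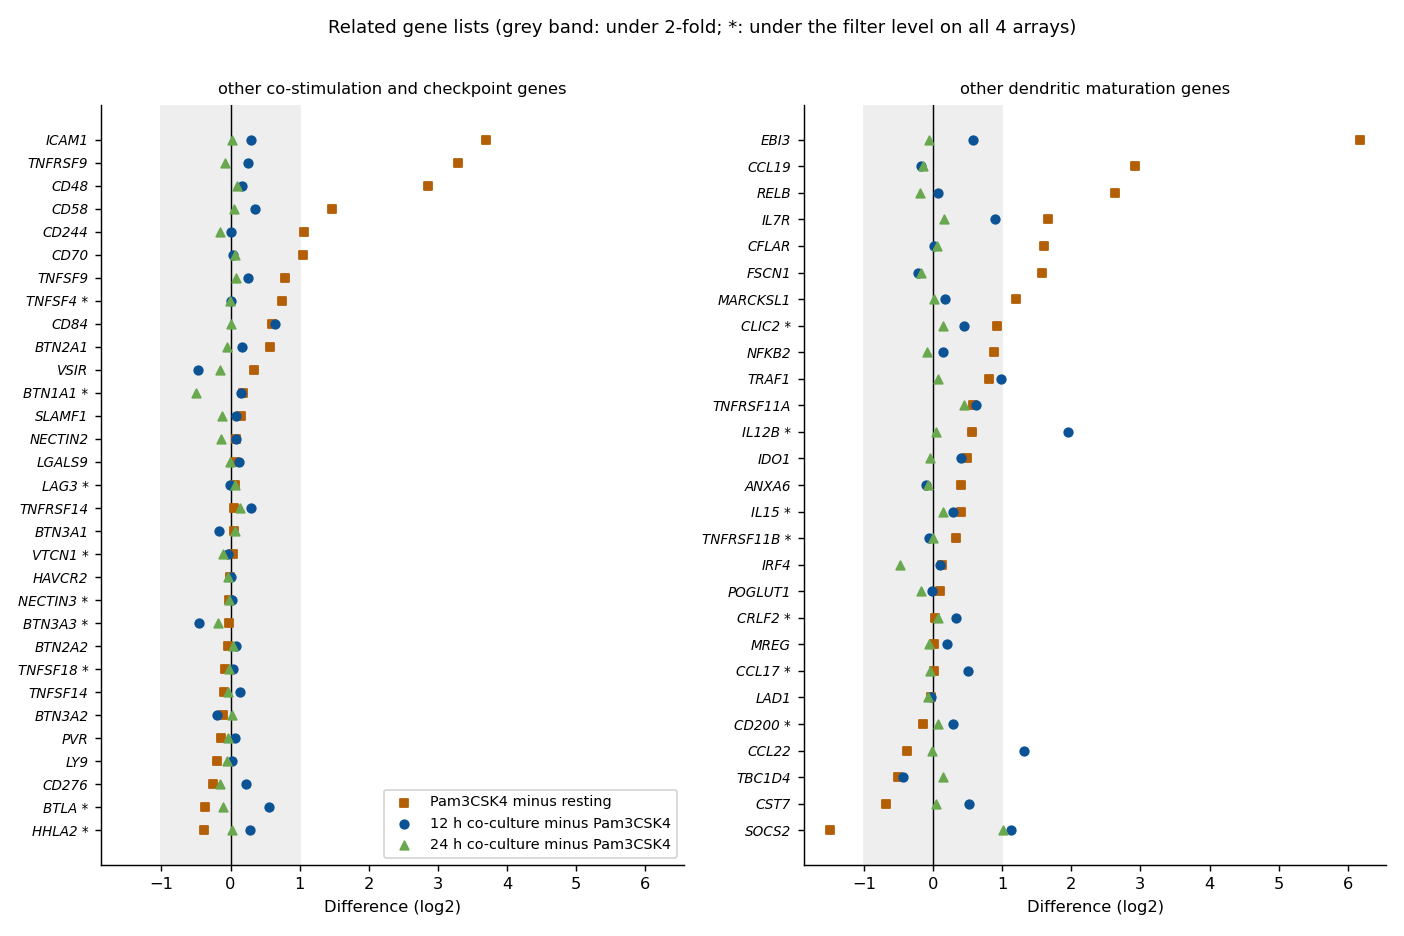
Difference (log2, x axis) of 31 other co-stimulation genes and 27 other maturation genes (y axis, sorted by the Pam3CSK4 difference), with squares for Pam3CSK4 minus resting, circles for 12 h minus Pam3CSK4 and triangles for 24 h minus Pam3CSK4. In the first list, on the probe sets of highest mean, all circles and triangles lie inside the grey 2-fold band, and in the second IL12B, CCL22 and SOCS2 have circles beyond it.

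Profiles were then compared across the 4 arrays, each minus its own mean, by the straight-line distance in log2 between a listed gene and each other gene at the filter level. The profile nearest to CD80 was that of BHLHE40, a transcriptional repressor, at a distance of 0.04, with 9.14 log2 at 24 h, 10.09 at 12 h, 8.90 with Pam3CSK4 and 7.14 at rest. CLEC5A, a myeloid lectin receptor, followed at 0.06 and ADA, adenosine deaminase, at 0.26, and ADA was also nearest to CD83, at 0.22. After it came RUNX1T1 and GUCY1A2 for CD83, each at 0.24. Near CD274 were PTPRE at 0.10, RAPGEF1 and RNF213, each at 0.11. For SLAMF7 the nearest was THBS1, thrombospondin, at 0.40, then the chemokine genes CXCL1 at 0.53 and CXCL8 at 0.56. For LAMP3 the distances were larger, with HMGN2P46 at 0.90, CXCL2 at 0.92 and TOX-DT at 0.95. The profiles were not scaled, so distances tend to grow with a gene's range over the 4 arrays. That range was 5.93 log2 for SLAMF7 and 5.18 for LAMP3, beside 0.57 for CD86.

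Nearest to CD40 were KMO, REC8 and TRPM2, each at 0.03, and nearest to CD86 were LST1, NFKBIB and HIF1A, each at 0.03. ICOSLG was nearest to RTN1, PLSCR1 and LHX2, at 0.04 to 0.07, and CCR7 to SGSH, CTSC and SLC43A2, at 0.03 to 0.08. Among the listed genes themselves, CD80 and CD83 were the closest pair, at 0.31, followed by CD274 and ICOSLG at 0.33 and CD40 and ICOSLG at 0.38. With 4 arrays such distances describe these profiles and rest on no replicate.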

How the data were processed

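Total RNA of THP-1 cells was hybridised to Affymetrix arrays, 1 per group, and groups were taken from the source labels. Per the submitters' processing notes, RMA in affy 1.28.1 gave the deposited log2 values, which ran from 2.54 to 15.22. RMA forces the arrays to a common distribution, so a global change in RNA content cannot be seen. No genome build is given for the probe sets. Gene names came from a platform annotation, and entries of all 10 genes matched RefSeq (GRCh38.p14). Probe sets naming 1 gene, 41091 in number, were used, without control probe sets. Where a gene had several, the probe set with the highest mean stood for it. Differences of log2 values were counted at 2-fold over all genes found and over those that reached the median of all values on 1 array or more. Related genes named in the text were those at least 2-fold different, at most 6 per list and comparison, and the 3 nearest profiles per gene. The alternatives were averaging of a gene's probe sets, leaving out _x_at and _s_at probe sets, cyclic loess (limma 3.58.1 in R 4.3.3, 3 iterations), other filters, and 1.5-fold and 3-fold thresholds. The counting was tested on simulated arrays. Python 3.11.15, numpy 2.4.6, pandas 2.3.3 and matplotlib 3.10.9 were used. The genes, lists and comparisons were chosen with earlier results of these data known. Precision is limited by the number of arrays. Genes without a probe set naming them alone were not analysed here.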

Additional observations from a re-analysis of the deposited data

Results flagged for a closer look

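LAMP3 and CD40 differed from Pam3CSK4 alone in opposite directions at the 2 times on the probe set of highest mean, and the difference was not tested, since each time has 1 array. LAMP3 was 2.48 log2 above Pam3CSK4 at 12 h and 0.04 below it at 24 h (-0.04), which is -2.52 for 24 h minus 12 h. CD40 was 0.22 above at 12 h and 0.07 below at 24 h (-0.07), which is -0.28. The 24 h differences are smaller than 0.12 log2, the typical spread of 24 h minus Pam3CSK4 over the 13410 genes at the filter level.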

How the results depend on the processing

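No paired analysis was possible because each group has 1 array, and for the same reason no array could be left out. With a gene's probe sets averaged, 4 genes were at least 2-fold higher with Pam3CSK4 than at rest, against 7, the median over the 7 that reached the filter level was 1.79, against 1.45 over 9, and 1 gene, against 2, was at least 2-fold lower at 24 h than at 12 h. Averaged, CD80 stood at 0.95, CD274 at 0.74 and ICOSLG at 0.76 for Pam3CSK4, CD80 at 0.54 for 12 h, and SLAMF7 at -0.99 for 24 h minus 12 h, all under 2-fold; their other probe sets differed less. At 3-fold, 4 genes were higher with Pam3CSK4 and 1 was lower at 24 h than at 12 h; at 1.5-fold, 6 were higher at 12 h than with Pam3CSK4, against 3, and 4 were lower at 24 h than at 12 h. With a 75th percentile filter, which left 7 genes, the medians were 1.76 for Pam3CSK4, 0.88 for 12 h, against 0.62, and -0.76 for 24 h minus 12 h, against -0.55. The 0.62 is the difference of CCR7, which reached the filter level through the 12 h array alone. With no filter the 12 h median over the 10 genes was 0.60. With a gene's probe sets averaged, 25 of 40 single-gene differences moved by less than 0.12 log2. The largest shift was then 2.16 log2, and 5 differences had another sign. Without _x_at and _s_at probe sets 38 of 40 moved by less than 0.12 log2, and with cyclic loess 40 of 40 did. No difference of 2-fold changed sign under any of the 3 settings that were run on single genes.

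Over the 13410 genes at the filter level, counts at least 2-fold higher with Pam3CSK4 were 555, with 1017 at 1.5-fold and 310 at 3-fold, and lower counts were 229, 790 and 67. For 12 h the higher counts were 55, 255 and 12 and the lower ones 47, 383 and 6, with 26 lower when averaged, which left 11691 genes. For 24 h against Pam3CSK4 the higher counts were 4, 22 and 2, with 1 when averaged and 1 at the 75th percentile, and lower counts 0, 1 and 0. For 24 h against 12 h the higher counts were 46, 421 and 5, with 21 when averaged, and the lower ones 30, 185 and 5. Signal over background was not available, so values near the filter level, those of CD86, CCR7 and PDCD1LG2 in particular, limit what can be read from those genes.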
